A study of Mus musculus with 6 samples.

Results

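The genes of the MHC class II pathway were examined in the hearts of Cenpf knockout and wild-type mice. The set held 9 genes, each measured by 1 probe, out of 21789 probes that the array's annotation assigns to exactly 1 gene symbol. They were picked by name, with earlier results of these arrays known, among them a large difference of H2-Ea. Where a gene has several probes the probe of highest mean was to be taken, but all 9 members had a single probe. The 3 knockout hearts (KO) came from mice labelled cenpf knock-out and the 3 wild-type hearts (WT) from mice labelled wild-type, all 12 months old and untreated, with 1 array per heart. The part of Cenpf that was deleted, the cells in which it was deleted, the strain, the sex and any shared litters are not given in the labels. Each heart is labelled a biological replicate, and the spread between hearts therefore holds that between animals. No batch is labelled.

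Class II molecules are pairs of an alpha and a beta chain that carry peptides from endocytosed protein to the surface of antigen-presenting cells, where CD4+ T cells read them. In mice the classical pairs are A, made of H2-Aa and H2-Ab1, and E, made of H2-Ea and H2-Eb1. Cd74 encodes the invariant chain that occupies the groove of new pairs, H2-DMa a chain of the DM molecule that exchanges its remnant for peptide, and H2-Oa and H2-Ob the chains of the DO molecule that restrains DM. Ciita encodes the coactivator that switches the class II genes on, and it acts through factors bound at the X and Y boxes of their promoters. In the heart the pathway is known from resident macrophages and dendritic cells. Some laboratory strains, C57BL/6 among them, carry a deletion in H2-Ea that stops its transcription. The gene table used here, made on the C57BL/6J assembly GRCm38.p6, lists H2-Ea as a transcribed pseudogene, whereas the other members are protein coding. In whole heart, fewer cells of a type and less RNA per cell cannot be told apart.

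Signals are log2 values as deposited, so a difference of 1 is a doubling. The background level, 6.35, was the value below which 95% of 1210 probes for odorant and vomeronasal receptors had their mean, as these genes should be silent in heart. Cenpf itself read 6.35, 6.10 and 6.68 in the KO hearts, against 8.75, 8.54 and 8.04 in the WT hearts, a difference of -2.07 ± 0.21 (SE, limma, adjusted p = 0.0286). Whether its probe lies in the deleted part is not stated. The 10 cardiomyocyte markers were all above the background level, and their centred mean lay between -0.059 and 0.088 in every heart. WT replicate 3 and KO replicate 1 stood apart, with estimated array weights of 0.54 and 0.53, while the other 4 hearts had weights from 1.003 to 2.003. With all 6 arrays 6 of the 21789 probes passed an adjusted p of 0.05, and without WT replicate 3 there were 293. Without KO replicate 1 there were 6. The class II differences are also given without WT replicate 3, because leaving it out moved the number of calls the most.

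The promoters of class II genes are printed because the coordinated use of their X and Y boxes is the textbook basis for the chains being transcribed together. RefSeq windows of 300 bases on GRCm38.p6, from 250 before to 50 after the annotated start, were at hand for 5 of the 9 members and 6 starts. The cores do not overlap. Capitals mark an X core, written CNNGCAAC, and a Y core, written TGATTGG, where the second begins 30 to 36 bases after the first on the gene's strand. Both patterns were chosen after these windows had been read. The 4 windows below are from chr17:34287774-34288073 (minus strand) for H2-Aa, chr17:34305617-34305916 (plus strand) for H2-Eb1, chr17:34092129-34092428 (plus strand) for H2-Oa and chr17:34238655-34238954 (plus strand) for H2-Ob.
H2-Aa: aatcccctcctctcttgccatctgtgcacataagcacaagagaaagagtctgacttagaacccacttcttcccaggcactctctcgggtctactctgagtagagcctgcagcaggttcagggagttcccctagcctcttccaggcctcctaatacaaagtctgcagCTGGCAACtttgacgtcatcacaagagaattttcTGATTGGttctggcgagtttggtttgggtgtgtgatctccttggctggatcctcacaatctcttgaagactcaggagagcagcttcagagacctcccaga
H2-Eb1: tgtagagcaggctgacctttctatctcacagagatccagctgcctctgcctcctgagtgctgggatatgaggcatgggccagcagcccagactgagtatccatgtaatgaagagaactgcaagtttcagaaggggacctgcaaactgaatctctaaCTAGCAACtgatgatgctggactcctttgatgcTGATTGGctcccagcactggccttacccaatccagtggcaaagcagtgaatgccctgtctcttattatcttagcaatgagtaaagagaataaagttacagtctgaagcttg
H2-Oa: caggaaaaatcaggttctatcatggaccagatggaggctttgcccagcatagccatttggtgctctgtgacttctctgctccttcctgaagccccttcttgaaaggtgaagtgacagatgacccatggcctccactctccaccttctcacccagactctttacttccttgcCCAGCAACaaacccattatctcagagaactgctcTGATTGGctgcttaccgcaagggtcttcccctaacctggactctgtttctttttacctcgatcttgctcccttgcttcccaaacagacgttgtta
H2-Ob: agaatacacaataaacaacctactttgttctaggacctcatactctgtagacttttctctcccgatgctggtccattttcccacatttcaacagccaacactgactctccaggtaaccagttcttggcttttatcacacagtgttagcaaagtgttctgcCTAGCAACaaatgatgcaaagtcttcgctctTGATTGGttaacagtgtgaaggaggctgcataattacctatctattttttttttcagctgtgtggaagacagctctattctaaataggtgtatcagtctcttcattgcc

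In H2-Aa the X core began 84 bases and the Y core 50 bases before the annotated start. The distances were 94 and 61 bases in H2-Eb1, 79 and 45 bases in H2-Oa, and 90 and 59 bases in H2-Ob. The Y core thus began 31 to 34 bases after the X core in all 4 genes. The 2 windows of H2-DMa held neither core on the gene's strand and 1 X core on the other. Among all 32851 windows, on either strand, 11.2% held the X core, 7.82% the Y core, and 0.0365%, or 12 windows of 11 genes, the spaced pair. The 11 genes were H2-Aa, H2-Eb1, H2-Oa, H2-Ob, H2-Eb2, Ift74, Mark3, Stard7, Ccdc189, 1700048F04Rik and 2810029C07Rik. A match of letters is a description and does not show binding.

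**Figure D1:**
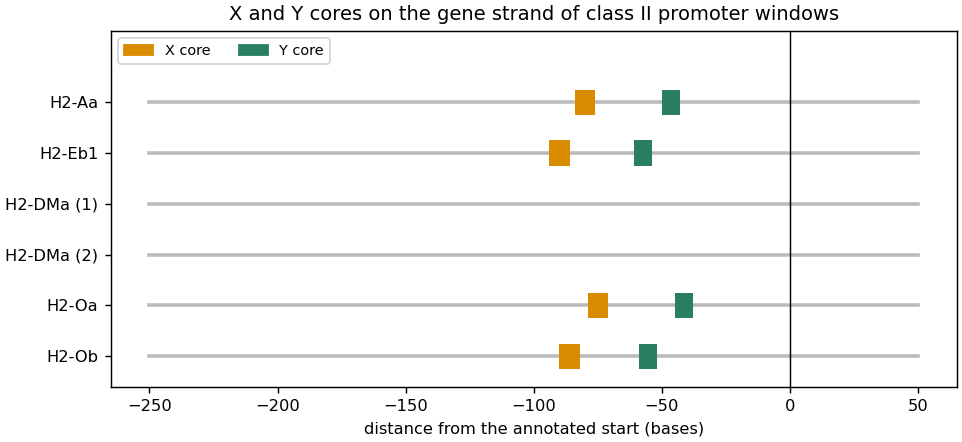
Positions of the X core (orange) and the Y core (green) in the promoter windows of 5 class II genes, in bases from the annotated start (vertical line). The Y core begins 31 to 34 bases after the X core in H2-Aa, H2-Eb1, H2-Oa and H2-Ob, and neither lies on the gene's strand in the 2 windows of H2-DMa.

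H2-Ea, the alpha chain of the E molecule, was the member with the largest difference between the groups. It read 5.52, 5.49 and 5.46 in the KO hearts, against 9.23, 9.69 and 6.47 in the WT hearts. The groups did not overlap, but WT replicate 3 lay little above the background level, 3.22 below WT replicate 2. All 3 KO hearts lay below the background level, within 0.064 of each other. The means were 5.49 ± 0.03 in KO and 8.46 ± 1.74 in WT hearts (SD, n = 3 each), and the difference of -2.97 ± 0.70 (SE) did not pass over the whole table (limma, adjusted p = 0.368). Since the KO mean lay below the background level, only a bound can be given: it was at least 4.33-fold below the WT mean. This bound sets the KO mean to the background level and holds no error of sampling. The 95% interval of the log2 difference ran from -4.59 to -1.36. Only 0.0184% of all probes had an SD among the WT hearts as large as that of H2-Ea. Without WT replicate 3 the difference was -3.97 ± 0.15 (SE) and passed (limma, adjusted p = 0.000323), at least 8.63-fold below WT by the same kind of bound. As WT replicate 3 was the lowest WT heart for H2-Ea, leaving it out could only widen the difference. Without KO replicate 1 it was -2.99 and did not pass (limma, adjusted p = 0.388). The strain of each heart is not given, so a difference that goes with the knockout and one that goes with an H2-Ea allele carried by some of the hearts cannot be told apart.

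The partner of H2-Ea, the beta chain H2-Eb1, read 9.60, 9.11 and 9.38 in the KO hearts, against 8.36, 8.59 and 9.42 in the WT hearts. WT replicates 1 and 2 lay below every KO heart, and WT replicate 3 lay among them. The difference was 0.58 ± 0.26 (SE), with a 95% interval of -0.018 to 1.17, and did not pass (limma, adjusted p = 0.515). The hearts in which H2-Ea was high were thus those in which the signal of its partner chain was lowest. This was not particular to the partner chain, since the same hearts were also the lowest for H2-Aa, H2-Ab1, H2-DMa and Cd74.

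The chains of the A molecule showed the widest spread among the WT hearts after H2-Ea. H2-Aa, the alpha chain, read 10.51, 10.03 and 10.27 in the KO hearts, against 8.25, 9.24 and 11.14 in the WT hearts. WT replicate 3 was the highest of all 6 hearts and WT replicate 1 the lowest, 7.42-fold apart, and the KO hearts lay above WT replicates 1 and 2. H2-Ab1, the beta chain, read 10.05, 9.45 and 9.64 in the KO hearts, against 8.44, 9.17 and 10.36 in the WT hearts. The order of the 6 hearts was the same as for H2-Aa, with WT replicates 1 and 3 3.79-fold apart.

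The KO means were 10.27 ± 0.24 for H2-Aa and 9.71 ± 0.31 for H2-Ab1, against WT means of 9.54 ± 1.47 and 9.32 ± 0.97 (SD, n = 3 each). Both differences were smaller than the spread of the WT hearts. For H2-Aa the difference was 0.73 ± 0.60 (SE, limma, adjusted p = 0.710), with a 95% interval of -0.66 to 2.11. For H2-Ab1 it was 0.39 ± 0.42 (SE, limma, adjusted p = 0.775), with a 95% interval of -0.57 to 1.35. The H2-Aa difference was 0.078 without WT replicate 1 and 1.52 without WT replicate 3. That of H2-Ab1 was -0.051 and 0.91 without the same hearts.

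Cd74, the invariant chain, followed the A chains in its order of hearts. It read 10.33, 9.87 and 10.13 in the KO hearts, against 9.29, 9.83 and 11.06 in the WT hearts. WT replicate 3 again stood above and WT replicate 1 below all other hearts, 3.42-fold apart. The group means were 10.11 ± 0.23 in KO and 10.06 ± 0.91 in WT hearts (SD, n = 3 each), a difference of 0.053 ± 0.39 (SE, limma, adjusted p = 0.977). Its sign turned without KO replicate 1, with -0.059, and without WT replicates 1 and 2, with -0.33 and -0.060.

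The genes of peptide exchange varied less. H2-DMa read 8.36, 7.96 and 8.22 in the KO hearts, against 7.73, 7.90 and 8.47 in the WT hearts, with the same order of hearts as H2-Aa. H2-Ob, the beta chain of DO, read 7.26, 6.76 and 7.15 in the KO hearts, against 6.55, 6.81 and 6.89 in the WT hearts. H2-Oa, its alpha chain, read 6.80, 6.49 and 6.80 in the KO hearts, against 6.598, 6.54 and 6.95 in the WT hearts. The groups overlapped for all 3 genes, and the DO chains lay within 1 of the background level in every heart. The differences were 0.15 ± 0.20 for H2-DMa, 0.31 ± 0.15 for H2-Ob and -0.0020 ± 0.14 for H2-Oa (SE), with limma adjusted p of 0.823, 0.546 and 0.997.

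Ciita, the coactivator of the class II genes, read 6.74, 6.63 and 6.81 in the KO hearts, against 6.74, 6.33 and 6.78 in the WT hearts. It did not follow the order of the chains, since WT replicate 1, lowest for both A chains, lay beside KO replicate 1. WT replicate 2 lay below the background level, and all values lay within 0.48 of each other. The difference was 0.11 ± 0.14 (SE, limma, adjusted p = 0.808), with a 95% interval of -0.21 to 0.43.

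**Figure D2:**
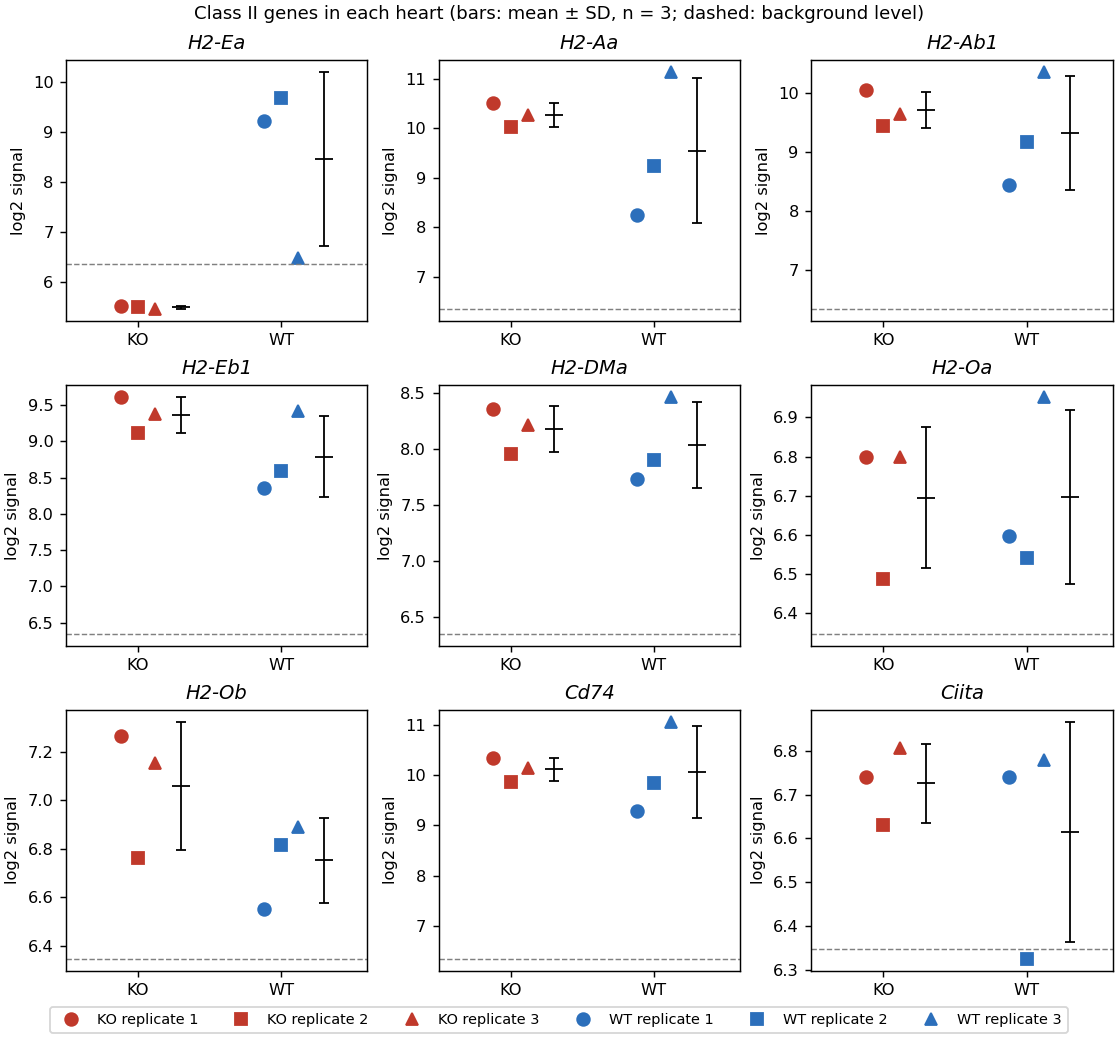
Log2 signal of the 9 class II genes in each KO heart (red) and WT heart (blue), with replicate numbers as symbols, mean ± SD as black bars and the background level of 6.35 dashed. Each panel has its own scale. H2-Ea is below the background level in the 3 KO hearts and little above it in WT replicate 3, and WT replicate 3 is the highest heart for H2-Aa, H2-Ab1, H2-DMa, H2-Oa and Cd74.

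Counted over the set, 7 members had a higher and 2 a lower mean in KO hearts, where 47.9% of all probes were higher. The median difference of the 9 was 0.15, or 0.23 for the 8 without H2-Ea, against -0.0082 over all 21789 probes. At an adjusted p of 0.05, 0 of 9 members passed in limma, where 0.0275% of all probes did. At an unadjusted p of 0.05 only H2-Ea passed, or 1 of 9, where 9.9% of all probes did. H2-Ea was also the only member whose groups did not overlap, where 14.8% of all probes did not.

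Without WT replicate 3, 8 members were higher in KO hearts, where 47% of all probes were, and H2-Ea was lower. WT replicate 3 was the highest WT heart for these 8 and the lowest for H2-Ea. Its removal could therefore move the differences only in those directions. H2-Ea was then the only member called, lower in KO hearts, where 1.34% of all probes were called and 0.569% were called lower. At an unadjusted p of 0.05, 6 of 9 members passed in limma, where 15.8% of all probes did. The groups did not overlap for 6 members, H2-Ea, H2-Aa, H2-Ab1, H2-Eb1, H2-DMa and Cd74, where 34.2% of all probes did not. H2-Aa differed by 1.52 ± 0.29 and H2-Eb1 by 0.89 ± 0.16 (SE), and neither passed (limma, adjusted p = 0.0661 and adjusted p = 0.0622). H2-Ab1 differed by 0.91, Cd74 by 0.55 and H2-DMa by 0.36, with limma adjusted p from 0.160 to 0.286. H2-Ob differed by 0.38, Ciita by 0.19 and H2-Oa by 0.13, and their groups still overlapped. Leaving out WT replicate 1 worked the other way, since the mean difference of the 8 members other than H2-Ea was then 0.0475, against 0.62 without WT replicate 3 and 0.29 with all hearts. Without KO replicate 1 it was 0.19, and 0 of 9 members were called.

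**Figure D3:**
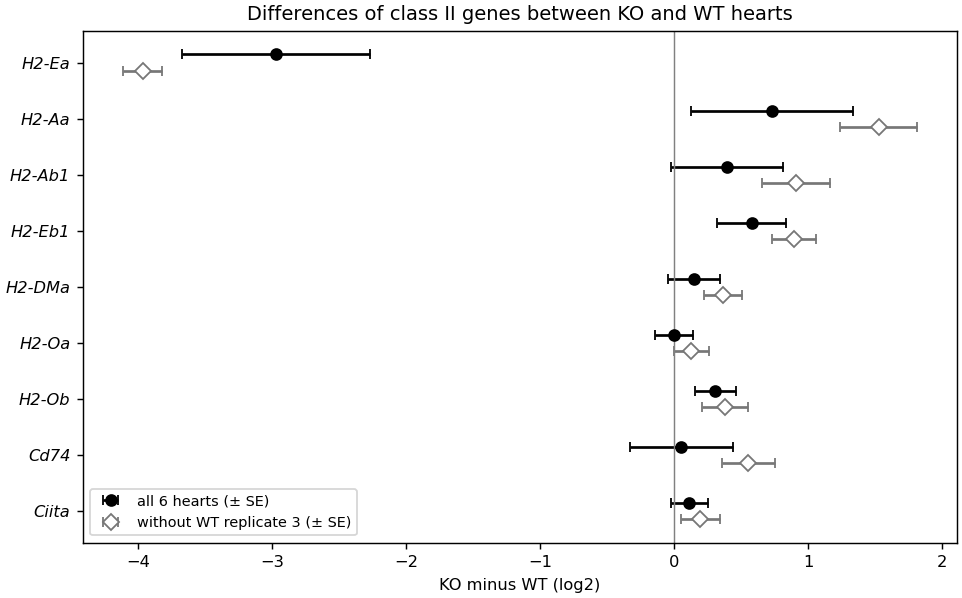
Difference between KO and WT hearts (KO minus WT, log2, ± SE from limma) of the 9 class II genes, with all 6 hearts (filled circles) and without WT replicate 3 (open diamonds). H2-Ea is the only gene far to the left, at -2.97 and -3.97, and the 8 other genes move to the right when WT replicate 3 is left out.

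The spread among hearts was larger in WT than in KO hearts for 8 of the 9 members, where 52.7% of all probes had a larger SD in WT. H2-Ob was the exception. In the KO hearts replicate 2 was the lowest for 8 members, where 33.9% of all probes had it lowest, and H2-Ea was the exception. In the WT hearts replicate 3 was the highest for 8 members, where 34.2% of all probes had it highest, and H2-Ea was again the exception. For 6 members, H2-Aa, H2-Ab1, H2-Eb1, H2-DMa, H2-Ob and Cd74, WT replicate 1 was also the lowest and replicate 2 lay between, where 16.3% of all probes had the WT hearts so placed. For H2-Aa, H2-Ab1 and Cd74 only 0.0734%, 0.184% and 0.225% of all probes had a WT SD as large.

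Across hearts the chains other than H2-Ea varied together. Of 28 pairs of 8 members all had a positive Pearson r over the 6 hearts, from 0.30 to 0.99 with a median of 0.75. H2-Ea, whose hearts fell into separate levels, was left out of the pairs. H2-Aa and H2-Ab1 had r = 0.99 (exact permutation p = 0.00139, the smallest that 6 hearts allow, 0.0130 adjusted over the 28 pairs) and Spearman rho = 1.0 (exact permutation p = 0.00278, 0.0130 adjusted). Without WT replicates 1 and 3, the hearts farthest from the median of H2-Aa, r was 0.92. Only 0.0459% of all probes had an r with H2-Aa as high as that of H2-Ab1, the probe of H2-Aa included. For the pair of lowest r, H2-Ob with Ciita, 29.3% of all probes had an r with H2-Ob as high.

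The invariant chain, H2-DMa and H2-Eb1 also varied with the A chains. Cd74 and H2-Aa had r = 0.93 (exact permutation p = 0.00972, 0.0340 adjusted) and rho = 1.0, and r was 0.84 without WT replicates 1 and 3. H2-DMa and H2-Ab1 had r = 0.96 (exact permutation p = 0.00139, 0.0130 adjusted) and rho = 1.0, and r was 0.95 without the same hearts. H2-Eb1 and H2-Aa had r = 0.93 (exact permutation p = 0.00694, 0.0324 adjusted) and rho = 0.94, and r was 0.99 without the same hearts. In all, 9 of the 28 pairs passed an adjusted p of 0.05, all of them among H2-Aa, H2-Ab1, H2-Eb1, H2-DMa and Cd74.

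The pair of this group that did not pass by Pearson's r was H2-Eb1 with Cd74, at r = 0.79 (exact permutation p = 0.0444, 0.0987 adjusted) and rho = 0.94. Without WT replicates 1 and 2, the hearts farthest from the median of H2-Eb1, its r was 0.49. Over all 6 hearts Ciita had the lowest r with most chains, between 0.30 with H2-Ob and 0.64 with H2-Oa, and 0.36 with H2-Aa (exact permutation p = 0.431, 0.482 adjusted). These low values depend on the hearts used, since without WT replicates 1 and 3 Ciita had r = 0.95 with H2-Aa, 0.79 with H2-Ab1 and 0.74 with Cd74. Without KO replicates 1 and 3 its r with H2-Ob was -0.23. As deviations from the group means, the 6 pairs among H2-Aa, H2-Ab1, H2-Eb1 and Cd74 had r from 0.96 to 0.995. All pairs share the same 6 arrays, so they are not independent of each other.

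**Figure D4:**
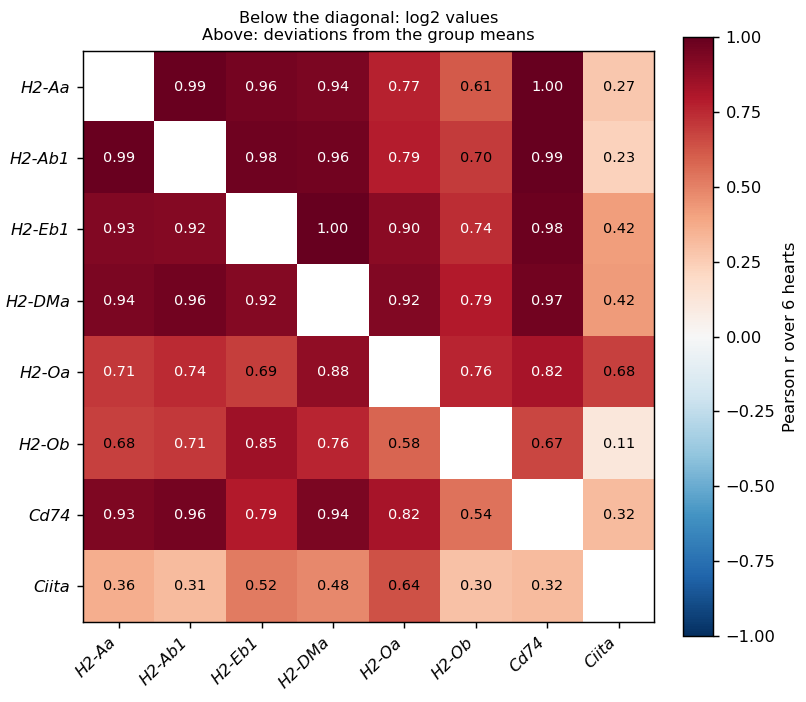
Pearson r over the 6 hearts between 8 class II genes, from the log2 values below the diagonal and from deviations from the group means above it. The pairs among H2-Aa, H2-Ab1, H2-Eb1, H2-DMa and Cd74 lie between 0.79 and 0.996, and those of Ciita between 0.11 and 0.68.

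A class II profile was formed as the mean of the centred signals of H2-Aa, H2-Ab1, H2-Eb1 and Cd74. It stood at 0.48, -0.031 and 0.21 in the KO hearts, against -1.06, -0.44 and 0.85 in the WT hearts. Of 15504 other probes above the background level, 215 had an r of 0.9 or more with it over the 6 hearts. The 5 closest were Gm4924 at 0.996, Cd37 at 0.991, Marchf3 at 0.989, Ccl11 at 0.988 and Dnajc13 at 0.988. Cd37 encodes a tetraspanin of leukocytes and Ccl11 the chemokine eotaxin. Gm4924 read 9.26, 8.96 and 9.11 in the KO hearts, against 8.38, 8.77 and 9.39 in the WT hearts. Cd37 read 8.06, 7.70 and 7.94 in the KO hearts, against 7.29, 7.58 and 8.20 in the WT hearts. A role shared by the 5 genes was not tested. These values are a description of 6 hearts.

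Markers of the cells that carry class II molecules also varied between hearts. The centred mean of 18 macrophage and monocyte markers was 0.37, -0.30 and -0.13 in the KO hearts, against -0.21, 0.095 and 0.17 in the WT hearts. Within each group the hearts lay in the order of the class II profile. The pan-leukocyte and dendritic cell markers, given below, had this order too. The log2 of their summed signal ranged from 13.40 to 14.22 in KO and from 13.54 to 13.94 in WT hearts, and 1 of the 18, Ccr2, had a mean below the background level. Of the 18, 8 were higher and 10 lower in KO hearts, and 0 passed (limma, 1 higher and 2 lower at an unadjusted p of 0.05). Cd14, a coreceptor for lipopolysaccharide, read 7.51, 7.30 and 7.19 in the KO hearts, against 8.13, 8.11 and 8.14 in the WT hearts (limma, adjusted p = 0.110).

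The 8 pan-leukocyte markers had centred means of 0.32, -0.40 and -0.29 in the KO hearts, against -0.10, 0.18 and 0.30 in the WT hearts, and 0 lay below the background level. Their summed signal ranged from 11.78 to 12.63 in KO and from 12.09 to 12.46 in WT hearts on the log2 scale. The 13 dendritic cell markers had centred means of 0.26, -0.093 and -0.0098 in the KO hearts, against -0.090, -0.084 and 0.014 in the WT hearts. Of these 5 lay below the background level, namely Flt3, Itgax, Xcr1, Clec9a and Irf4, and their summed signal ranged from 10.32 to 10.90 in KO and from 10.35 to 10.47 in WT hearts. Of 9 B cell markers 6 lay below it, Cd79a, Ms4a1 and Pax5 among them, and their summed signal ranged from 9.56 to 9.78 in KO and from 9.59 to 9.71 in WT hearts. Cd209a, a lectin of dendritic cells, read 8.94, 6.71 and 7.20 in the KO hearts, against 6.37, 6.56 and 7.14 in the WT hearts (limma, adjusted p = 0.572). KO replicate 1 stood above the rest for Cd209a. It was also the highest KO heart for 7 of the 9 members, where 38.6% of all probes had it highest. Of the 13 dendritic cell markers 7 were higher and 6 lower in KO hearts, with 0 calls. Xcr1, below the background level, had KO replicate 1 as its lowest KO heart, at 5.78, 5.97 and 6.22. The part of these cells in the class II values was not tested.

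Of 12 T and NK cell markers, 5 lay below the background level, and their centred mean stayed between -0.048 and 0.043. Endothelial cells can carry class II molecules, and their 10 markers had centred means of 0.15, 0.050 and -0.012 in the KO hearts, against -0.085, -0.097 and -0.0055 in the WT hearts. Of these 10 markers 7 were higher and 3 lower in KO hearts, with a median difference of 0.061 and 0 calls. The largest difference was that of Cldn5, a tight junction gene of endothelium. Cldn5 read 9.62, 9.57 and 9.54 in the KO hearts, against 8.62, 8.92 and 9.31 in the WT hearts (limma, adjusted p = 0.379). Emcn, another of the 10, went the other way, with a difference of -0.27 (limma, adjusted p = 0.514). The 8 fibroblast markers had centred means of 0.35, -0.34 and -0.21 in the KO hearts, against 0.12, 0.29 and -0.22 in the WT hearts, so WT replicate 3 was the lowest WT heart there and the highest in the class II profile.

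**Figure D5:**
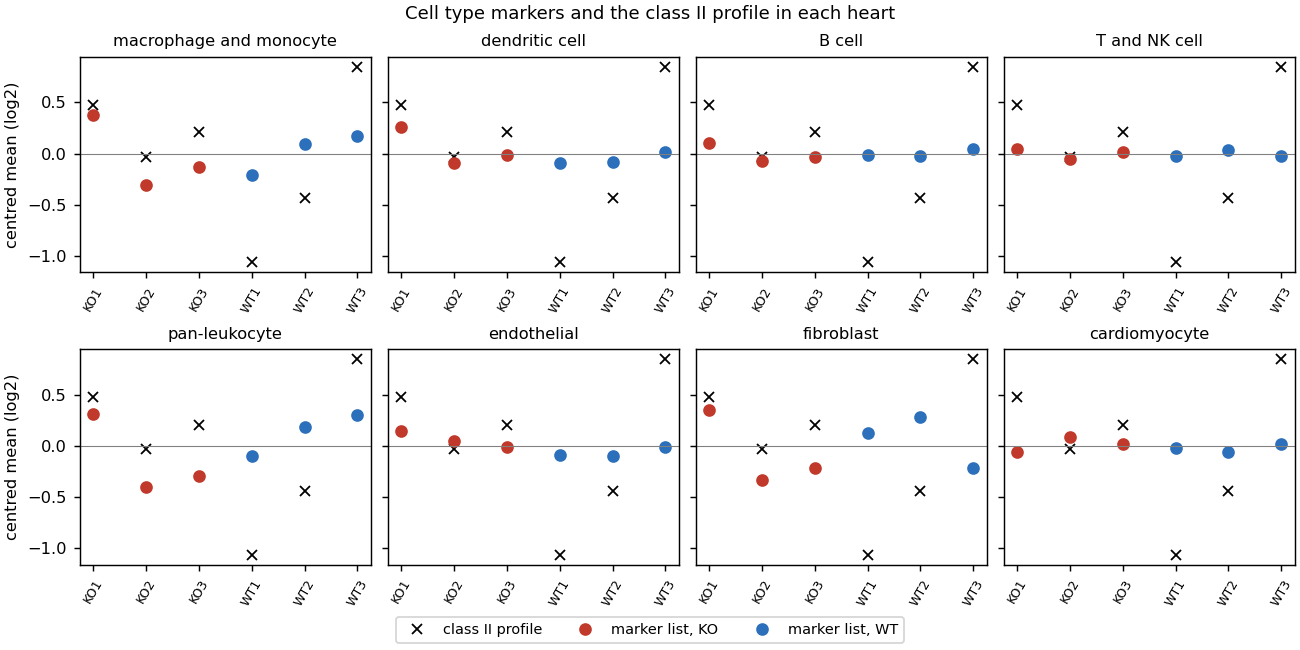
Centred mean (log2) of 8 cell type marker lists in each KO heart (red) and WT heart (blue), beside the class II profile of H2-Aa, H2-Ab1, H2-Eb1 and Cd74 (crosses). The profile runs from -1.06 in WT replicate 1 to 0.85 in WT replicate 3, while the macrophage and monocyte markers run from -0.21 to 0.17 in the same hearts. From KO replicate 2 to KO replicate 1 the profile runs from -0.031 to 0.48 and these markers from -0.30 to 0.37.

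The rest of the class II machinery gave 0 calls. Among 10 genes of peptide loading and processing with a probe, 5 were higher and 5 lower in KO hearts, with a median difference of 0.026. Beyond the members, Ctsb, a lysosomal protease, had the smallest p, at 11.98, 11.87 and 11.92 in KO hearts, against 11.76, 11.64 and 11.88 in WT hearts (limma, adjusted p = 0.614). Ctss, the protease that trims the invariant chain, differed by -0.046 (limma, adjusted p = 0.964), and Ifi30, a lysosomal thiol reductase, by -0.081 (limma, adjusted p = 0.898). H2-DMb1 and H2-DMb2 share a probe and are not analysed here. H2-Eb2, a further E beta gene, had both group means under the background level and a difference of 0.24 (limma, adjusted p = 0.592). Of 3 genes of class II turnover, Marchf8, a ubiquitin ligase, differed by 0.10 and Cd83, which shields class II from such ligases, by 0.089 (limma, adjusted p = 0.738 and adjusted p = 0.825).

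Among 8 genes of class II transcription, 3 were higher and 5 lower, with a median difference of -0.072. Rfxank, a subunit of the factor that binds the X box, read 8.25, 8.48 and 8.26 in the KO hearts, against 8.76, 8.71 and 8.58 in the WT hearts. Its groups did not overlap, and its difference of -0.35 ± 0.11 (SE) did not pass (limma, adjusted p = 0.408). Creb1, whose product can bind beside the X box, differed by -0.22 ± 0.10 (SE, limma, adjusted p = 0.529), also without overlap. In all, the groups did not overlap for 2 of the 8 genes, where 14.8% of all probes did not.

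The interferon gamma pathway, the main inducer of Ciita, also gave 0 calls, with 6 of 12 genes higher, 6 lower and a median difference of -0.0060. Their centred mean was 0.047, -0.062 and -0.089 in the KO hearts, against -0.044, -0.0006 and 0.15 in the WT hearts. Over the 6 hearts it had r = 0.60 with the class II profile, given as a description. This was not particular to the pathway. The r was 0.63 for the endothelial, 0.58 for the dendritic cell and 0.56 for the macrophage and monocyte markers. It was -0.76 for the genes of class II transcription and -0.31 for the fibroblast markers. Iigp1, an interferon-inducible GTPase, read 7.55, 7.76 and 7.86 in the KO hearts, against 8.43, 8.67 and 8.63 in the WT hearts, a difference of -0.85 ± 0.12 (SE, limma, adjusted p = 0.110). Ifng, the cytokine itself, read 7.09, 6.76 and 6.78 in the KO hearts, against 6.596, 6.597 and 6.52 in the WT hearts (limma, adjusted p = 0.469). The groups did not overlap for either gene, and for 4 of the 12 genes in all, where 14.8% of all probes did not. The differences of Iigp1 and Ifng ran in opposite directions. In the WT hearts Ifng lay little above the background level of 6.35.

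Class I genes and their loading factors, a neighbouring pathway, gave 0 calls among 14 genes, of which 5 were higher and 9 lower with a median of -0.054. Tapbp, which encodes the chaperone tapasin, differed by 0.36 ± 0.11 (SE, limma, adjusted p = 0.432) and Erap1, a peptide-trimming protease, by -0.19 ± 0.09 (SE, limma, adjusted p = 0.543). B2m, the light chain of class I, spanned 12.90 to 13.09 in the KO hearts, against 13.06 to 13.25 in the WT hearts. Of 8 genes of T cell contact, 4 were higher and 4 lower with 0 calls. Cd274, which encodes the inhibitory ligand PD-L1, differed by 0.34 ± 0.12 (SE, limma, adjusted p = 0.461) and Icosl by 0.29 ± 0.16 (SE, limma, adjusted p = 0.564). These lists were drawn up with earlier results of the arrays known.

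The genes next to H2-Ea in the gene table did not share its levels. Of the 10 genes on each side with a probe, 5 were members and 15 were not. The differences of these 15 lay between -0.40 for BC051142, whose signal lay below the background level, and 0.25 for Btnl2, a butyrophilin-like gene next to H2-Ea, with 0 calls (limma, smallest adjusted p = 0.464). The widest span over the 6 hearts among these 15 was 0.85, against 4.23 for H2-Ea. The 5 members among the neighbours spanned 2.89 for H2-Aa, 1.92 for H2-Ab1, 1.25 for H2-Eb1, 0.73 for H2-DMa and 0.71 for H2-Ob. All 5 had a higher mean in KO hearts, where H2-Ea had a lower one. The groups did not overlap for 4 of the 15, BC051142, Notch4, Pbx2 and Agpat1, where 14.8% of all probes did not.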

How the data were processed

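RNA of 6 hearts, 3 KO and 3 WT, was hybridised to 1 Affymetrix array each. The deposited values are log2 signals per probe, and the submitters' processing notes name RMA and Partek 6.6 as what the authors used. Settings and build were not stated in the labels. Array medians over 35556 probes lay between 6.92 and 6.97, so no further normalization was applied, and 0 columns were left unused.

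Probes were named from the platform's annotation: 21789 had 1 symbol, 1621 several and 12146 none. The gene table matched 21698 identifiers. The groups were set against each other in R 4.3.3 by limma 3.58.1 (lmFit, eBayes, two-sided, Benjamini-Hochberg over 21789 probes), tested on simulated data. Correlations over hearts used all 720 orders. Arrays have no read depth, and precision is limited by their number, 3 a group.

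Members and lists were chosen with earlier results of these data known. Genes named were the 9 members, Cenpf, the 2 smallest p of each pathway list, examples of the marker lists, the 5 genes most like the class II profile and genes next to H2-Ea. Ctss, Ifi30 and B2m, and the genes sharing the promoter pattern, were added for their roles or after their values were seen. The alternatives were 3 normalizations, a filter on dim probes, other tested families, other variance models, a replicate block and each heart left out. Same-numbered KO and WT hearts did not deviate together. Figures used matplotlib 3.10.9.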

Additional observations from a re-analysis of the deposited data

How the results depend on the processing

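Over all probes 6 were called, against 1 with all probes of the table tested, 22 with trend and robust variance, 33 with array weights, 0 with a plain linear model (1791 at an unadjusted p under 0.05) and 11 with the replicate block, and 1 to 293 with a heart left out. Members called stayed at 0, the plain linear model and the block included, except for 1, H2-Ea, without WT replicate 3, a range of 0 to 1. The H2-Ea difference kept its sign in all 16 alternatives, from -3.97 without WT replicate 3, where it passed, to -2.36 without WT replicate 2, with adjusted p from 0.000323 to 0.745. With the replicate block its adjusted p was 0.204. The replicate numbers did not pair the hearts: the deviations of same-numbered hearts correlated at -0.11, -0.16 and -0.0031, and 0 of the KO hearts correlated best with their own number.

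Signs of small differences turned. H2-Oa, at -0.0020, was 0.020 with array medians subtracted, 0.019 after quantile normalization, 0.013 after cyclic loess and 0.054 with array weights. With a heart left out it ranged from -0.080 to 0.13, H2-Ab1 from -0.051 to 0.91, H2-DMa from -0.0049 to 0.36, Cd74 from -0.33 to 0.55 and Ciita from -0.034 to 0.19. The cause was not tested. H2-Aa, H2-Eb1 and H2-Ob kept their sign in all 16. The mean difference of the 8 other members ranged from 0.0475 without WT replicate 1 to 0.62 without WT replicate 3. The median r of the pairs, 0.75, ranged from 0.74 to 0.84 over 5 alternatives. No member had a further probe to try. H2-Ea in KO hearts and Ciita lie too near the background level for sizes below it to be resolved.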
